A study of Mus musculus with 2 samples.

Results

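Promoter-proximal intergenic CHOP peaks are the peaks of the deposited list whose summit lay outside every protein-coding transcript and more than 1 kb but at most 10 kb from the nearest protein-coding start. Applied to mm10 coordinates with GENCODE M21 gene models, that position rule, which used no measured value of the peaks, picked 817 of 14157 peaks (5.77%, Wilson 95% interval 5.40 to 6.17%). The library was chromatin of wild-type mouse liver, taken 8 h after an intraperitoneal dose of tunicamycin at 1 mg per kg body weight and immunoprecipitated with an antibody against CHOP. Livers of 3 mice were pooled into this 1 library, and an input library of the same treated tissue served here only through the background the caller set beside each summit. The samples held no replicate library, no untreated liver and no CHOP-deficient liver, so each test below compares peaks or genes within 1 list and does not measure variation between animals.

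CHOP, the product of Ddit3, is a C/EBP-family transcription factor that accumulates when misfolded proteins build up in the endoplasmic reticulum (ER), as they do when tunicamycin blocks N-linked glycosylation. CHOP pairs with other C/EBP proteins but binds classical palindromic C/EBP sites poorly, and together with factors such as ATF4 it is found at composite sites that join a C/EBP part to an ATF or CRE part. In the liver, C/EBP factors and their partners act at upstream and distal elements as well as at promoters, which is the kind of position described here.

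The sequences below are 101 bp windows centred on the summits of 8 member peaks, written 5′ to 3′ on the plus strand of mm10 (GRCm38.p6 reference sequence from RefSeq), and are shown because each carries one of the sequence elements that the results turn on. Capitals mark matches, on either strand, to the C/EBP-ATF composite core TGATGNAA, its longer form TGATGCAAT, the CRE palindrome TGACGTCA or the AP-1 heptamer TGANTCA.
Hspa5 (chr2:34770194-34770294): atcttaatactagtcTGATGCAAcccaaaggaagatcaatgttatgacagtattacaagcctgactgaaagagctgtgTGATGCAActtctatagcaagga
Sesn2 (chr4:132514046-132514146): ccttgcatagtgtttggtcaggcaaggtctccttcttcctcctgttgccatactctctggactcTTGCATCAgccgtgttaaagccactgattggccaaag
Ahsg (chr16:22881556-22881656): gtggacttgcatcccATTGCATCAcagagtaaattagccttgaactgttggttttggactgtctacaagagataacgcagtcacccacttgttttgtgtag
Lpin1 (chr12:16620370-16620470): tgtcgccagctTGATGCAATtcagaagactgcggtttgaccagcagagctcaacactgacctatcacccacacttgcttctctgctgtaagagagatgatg
Ddit4 (chr10:59943642-59943742): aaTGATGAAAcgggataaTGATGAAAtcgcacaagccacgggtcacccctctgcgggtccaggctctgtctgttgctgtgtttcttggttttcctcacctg
Klf9 (chr19:23134971-23135071): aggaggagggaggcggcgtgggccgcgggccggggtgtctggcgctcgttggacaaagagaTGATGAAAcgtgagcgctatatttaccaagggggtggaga
Stbd1 (chr5:92599094-92599194): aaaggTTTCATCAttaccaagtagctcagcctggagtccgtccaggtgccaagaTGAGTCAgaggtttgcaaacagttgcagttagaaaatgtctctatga
Dnajc3 (chr14:118934821-118934921): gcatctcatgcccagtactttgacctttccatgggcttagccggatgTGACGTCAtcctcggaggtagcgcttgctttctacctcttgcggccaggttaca

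The Hspa5 window held the core TGATGCAA toward both ends. The Sesn2 core is read on the minus strand. The Ahsg and Lpin1 windows held the longer composite, in opposite orientations. A pair of closely spaced TGATGAAA cores opened the Ddit4 window, the Klf9 window held the same letters close to its summit, the Stbd1 window joined a core with an AP-1 heptamer, and the Dnajc3 window held the CRE palindrome.

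Peaks of this position were denser than peaks farther out, less dense than those at promoters and near the density of the whole genome. The 817 members fell on 156 Mb of eligible sequence, which is 5.24 peaks per Mb (exact Poisson 95% interval 4.89 to 5.61). The density was 97.7 peaks per Mb within 1 kb of a start, 6.23 (5.92 to 6.55) inside transcripts at the same distance of 1 to 10 kb, and 2.14 (2.07 to 2.22) in intergenic sequence beyond 10 kb. Inside transcripts beyond 10 kb it was 3.29 (3.16 to 3.42), and over all sequence 5.35 (5.26 to 5.44). The members' eligible sequence was 5.89% of the genome and held 5.77% of the peaks. Upstream of the nearest start the density was 8.21 peaks per Mb (6.91 to 9.68) in the step from 1 to 2 kb and 4.58 (3.42 to 6.0) in the step from 9 to 10 kb. It did not fall evenly, since the step from 8 to 9 kb reached 6.63 (5.25 to 8.26). These are densities within 1 library and were not tested.

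**Figure D1:**
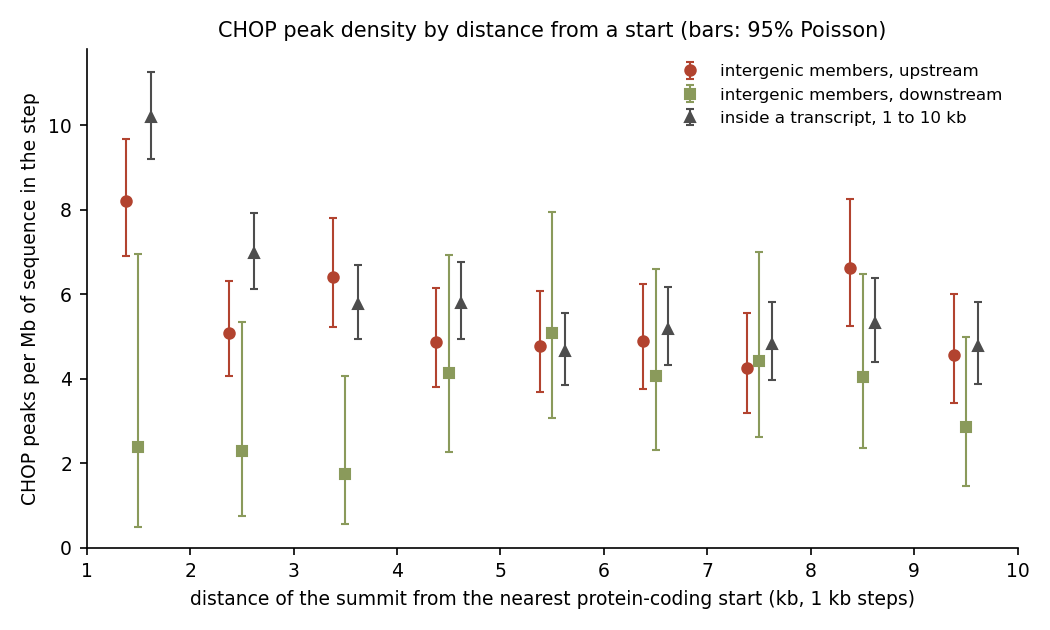
Density of CHOP peaks (peaks per Mb of sequence in each step, with exact Poisson 95% intervals) against the distance of the summit from the nearest protein-coding start in kb, for members upstream, members downstream and peaks inside transcripts at 1 to 10 kb. The upstream members are densest in the first step, at 8.21 per Mb, and lie between 4.25 and 6.63 per Mb in the other steps.

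Of the members, 708 (86.7%, Wilson 84.2 to 88.8%) lay upstream of the start nearest to them, where 80.9% of the eligible sequence lies. The density was 5.61 peaks per Mb upstream (5.21 to 6.04) and 3.66 downstream (3.00 to 4.41), where 109 members lay past the end of the transcript that starts there. Among the autosomes the density was highest on chromosome 12 (8.67, 6.22 to 11.8) and chromosome 8 (8.46, 6.32 to 11.1). The X chromosome had 23 members at 2.64 per Mb (1.67 to 3.96), the Y chromosome had 0 of the members, and 1 member of 6535 bp lay on the mitochondrial genome. Summits on soft-masked, repeat-like bases made up 39.7% of members, near the 39.1% of the eligible sequence that is soft-masked. The mitochondrial peak had 292 summit reads and a fold of 12.4. Another peak of the list lay within 10 kb of the summit of 443 members (54.2%). That share was not computed for all peaks, so it is a count and not a trait of the members.

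Most members were small peaks. The authors' fold is the ratio of the summit pileup to the local background, each with 1 added, and its median was 6.75 in members (quartiles 5.54 and 9.85, range 3.48 to 111.7), as in all peaks. The summit pileup recovered from the deposited values had a median of 10 reads in members (range 4 to 292), and 439 members (53.7%) rested on 10 reads or fewer. That share was 45.8% in all peaks, 54.7% inside transcripts at 1 to 10 kb and 59.0% in far intergenic peaks. It was 30.4% in promoter peaks, whose median was 13 reads. The background was at its lowest value, 0.333, in 35.5% of members and 7.74% of promoter peaks. The median width was 255 bp, against 285 bp in all peaks and 260 bp inside transcripts at 1 to 10 kb. A fold of at least 10 was reached by 200 members (24.5%, Wilson 21.7 to 27.5%), against 22.5% of all peaks, so the share of strong peaks was near that of the whole list. At the lower distance limit, the members just inside it were the peak 1002 bp from Ret with a fold of 3.75 and the peak 1005 bp from Ier2 with a fold of 11.3. The intergenic peaks just outside it were those at Eapp (998 bp, fold 7.69) and Tnfrsf14 (996 bp, fold 5.25). At the upper limit the last members lay 9978 bp from Slc38a2 (fold 9.04) and 9986 bp from 6030445D17Rik (fold 6.27). The next intergenic peaks outside lay 10005 bp from Slco1a4 (fold 12.0) and 10033 bp from Gm21860 (fold 5.21).

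A fold at or above the median of all peaks was found in 53.5% of members, against 48.8% of promoter peaks, a difference of 4.68 percentage points (Newcombe 95% interval 1.03 to 8.29, Fisher's exact test, adjusted p = 0.0305). The difference from intergenic peaks beyond 10 kb was 4.63 points (0.776 to 8.45, adjusted p = 0.0305, Fisher's exact test). The difference from peaks inside transcripts at 1 to 10 kb was −2.42 points (−6.64 to 1.80, adjusted exact p = 0.276). The difference from promoter peaks depended on settings. It was −2.70 points (adjusted exact p = 0.220) with −log10 q in place of the fold and −3.89 points (adjusted p = 0.0992) without peaks 290 to 340 bp wide. It was 2.00 points (adjusted p = 0.421) when the 30 members and the other peaks exactly at the median were not counted as high. The difference from far intergenic peaks was 4.63 points without summits on soft-masked bases (adjusted exact p = 0.218) and 4.78 points without peaks that align to 7SL RNA (adjusted p = 0.0695).

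Of 25 motifs searched on both strands, 3 were more frequent at the member summits than in their flanks, and the C/EBP-ATF composite core had the lowest adjusted p. The core TGATGNAA lay within 50 bp of the summit in 86 members (10.5%, Wilson 8.60 to 12.8%), against 6.28% of all peaks. In windows of the same size centred 500 bp downstream on the reference strand, 18 members (2.20%) had it. It was present at the summit alone in 83 members and in the flank alone in 15 (exact McNemar test, adjusted p = 3.50e-11 over 25 motifs). The flank on the other side held it in 1.71% of members. The longer composite TGATGCAAT was found at 19 member summits (2.33%) and 0 downstream flanks, against 1.12% of all peak summits (exact McNemar test, adjusted p = 4.77e-05). The GC box GGGCGG, the binding sequence of SP and KLF zinc finger factors, was found at 68 summits (8.32%) and 29 flanks (3.55%), with adjusted exact p = 6.04e-05, and at 23.4% of all peaks.

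The other motifs did not pass. The AP-1 heptamer TGANTCA was found at 39 member summits (4.77%) and 19 downstream flanks (2.33%) with adjusted p = 0.0653 (exact McNemar test), and the flank on the other side held it in 3.43%. The CRE palindrome TGACGTCA was found at 5 summits and 0 downstream flanks (adjusted exact p = 0.234). Its members lay nearest to Dnajc3, Rabepk, Myo1g, Slc25a51 and Hand2, names given after their values were seen. The palindromic C/EBP site TTGCGCAA was found at 0 of 817 member summits, which allows a share of up to 0.468% (Wilson), and at 0.134% of all peaks. The relaxed C/EBP site TTGCNNAA was found at 48 summits (5.88%) and 38 flanks (4.65%), with adjusted exact p = 0.572. The unfolded protein response element TGACGTGG, bound by XBP1 and ATF6 family factors, was found at 1 summit and 2 flanks.

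The variable letter of the core was not spread evenly. TGATGCAA was found at 43 member summits, TGATGAAA at 29, TGATGTAA at 15 and TGATGGAA at 0, while in all peaks the counts were 423, 289, 169 and 29 in the same order. Members with any of the composite, palindromic C/EBP, CRE or AP-1 sequences numbered 122 (14.9%), against 36 (4.41%) for their downstream flanks and 9.24% of all peaks. The nearest core of the 86 members lay a median of 22 bp from the summit, and in 38 of them (44.2%) it lay within 20 bp. There were 94 core matches at 0 to 50 bp from the member summits, 41 at 50 to 100 bp and 13 at 100 to 150 bp.

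**Figure D2:**
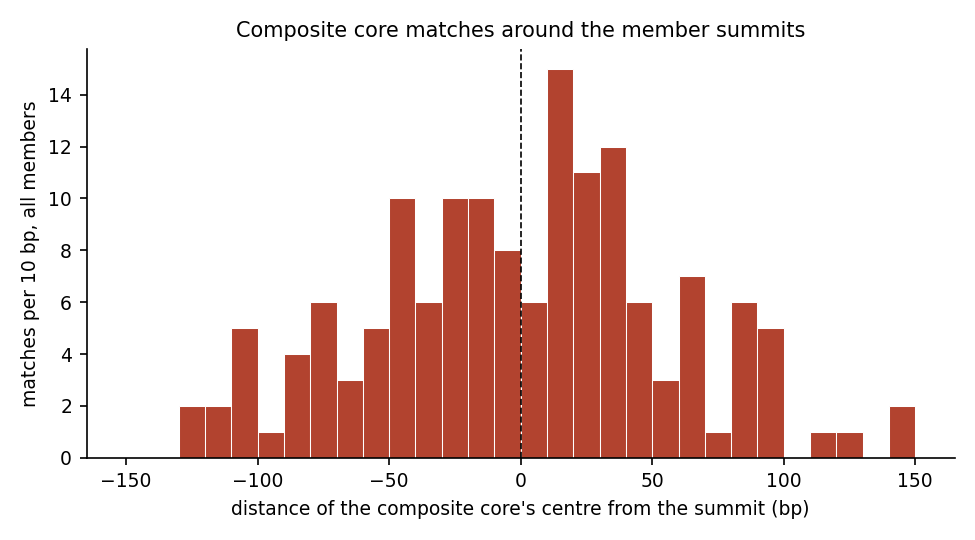
Number of matches to the composite core per 10 bp against the distance of their centre from the summit in bp, over all 817 members. Matches concentrate around the summit, with 94 within 50 bp and 13 at 100 to 150 bp.

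Members with the core had higher folds than those without. Their median fold was 8.51 (range 4.50 to 26.8), and 62 of 86 (72.1%) reached the median fold of all peaks, against 375 of 731 members without it (51.3%). This is a description and was not tested. Summits on soft-masked bases were also less frequent among them, at 15 of 86 (17.4%), against 309 of 731 (42.3%) in members without the core, and their part in the difference was not tested. The 19 members with the longer composite had a median fold of 6.75. The highest of these lay 1219 bp upstream of Itih1 (fold 21), which encodes a plasma inter-alpha-trypsin inhibitor chain and is named after its value was seen, and 9671 bp upstream of Ahsg (fold 21).

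The 68 members with a GC box were of another kind. Their windows had a median GC share of 73.8%, against 48.5% in all members, and 1 of them also held the composite core. They lay within 1 kb of the start of a gene that is not protein-coding in 16 cases (23.5%), against 80 of 817 members (9.79%). Within 2 kb of a protein-coding start there were 20 of them (29.4%), against 144 of all members. Base composition moved with this element, and its part in the summit enrichment was not tested.

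Compared with other positions, members differed from promoter peaks in 13 of the 25 motifs (Fisher's exact test, adjusted over 75 tests). The composite core was found in 10.5% of members and 1.89% of promoter peaks, a difference of 8.64 points (6.68 to 11, adjusted exact p = 3.68e-28). The AP-1 heptamer was found in 4.77% of members and 1.09% of promoter peaks (adjusted exact p = 2.10e-10). The nuclear receptor motif AGGTCA was found in 8.94% and 3.14% (adjusted exact p = 1.38e-11), the GATA motif AGATAA in 4.41% and 0.714% (adjusted p = 1.37e-12) and the HNF6 motif ATTGATT in 1.84% and 0.254% (adjusted p = 3.30e-06), members given before promoter peaks. In the opposite direction, the GC box was found in 8.32% of members and 45.4% of promoter peaks (adjusted exact p = 8.43e-107). The E-box CACGTG was found in 1.96% of members and 5.41% of promoter peaks (adjusted exact p = 2.31e-05), and the ETS motif CCGGAAG in 1.10% and 4.12% (adjusted p = 1.55e-05). Base composition differed as well, with a median GC share of 48.5% in member windows and 74.3% in promoter windows, and CpG observed/expected ratios of 0.232 and 0.925. Its part in these differences was not tested. The nuclear receptor and HNF6 motifs, and the motif named between them, did not pass against the members' own downstream flanks. In the order named above, summit shares were 8.94%, 4.41% and 1.84%, and flank shares were 6.49%, 5.02% and 0.857%. The adjusted p was 0.241, 0.882 and 0.335 in the same order (exact McNemar tests).

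Members and peaks inside transcripts at the same distance differed in 0 of 25 motifs by Fisher's exact test, at an unadjusted p under 0.05 as well as after adjustment. The core was found in 10.5% of members and 9.33% of those peaks, a difference of 1.20 points (−1.28 to 3.86, adjusted exact p = 0.772). Against intergenic peaks beyond 10 kb, the core differed by 2.22 points (0.0399 to 4.69, adjusted exact p = 0.235). One motif passed in that comparison: TGACNNNGC, the antioxidant response element bound by NRF2 and small MAF proteins, was found in 5.39% of members and 3.24% of far intergenic peaks (difference 2.15 points, 0.633 to 4.0, adjusted exact p = 0.0340). That call was lost among peaks with −log10 q of at least 5.

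**Figure D3:**
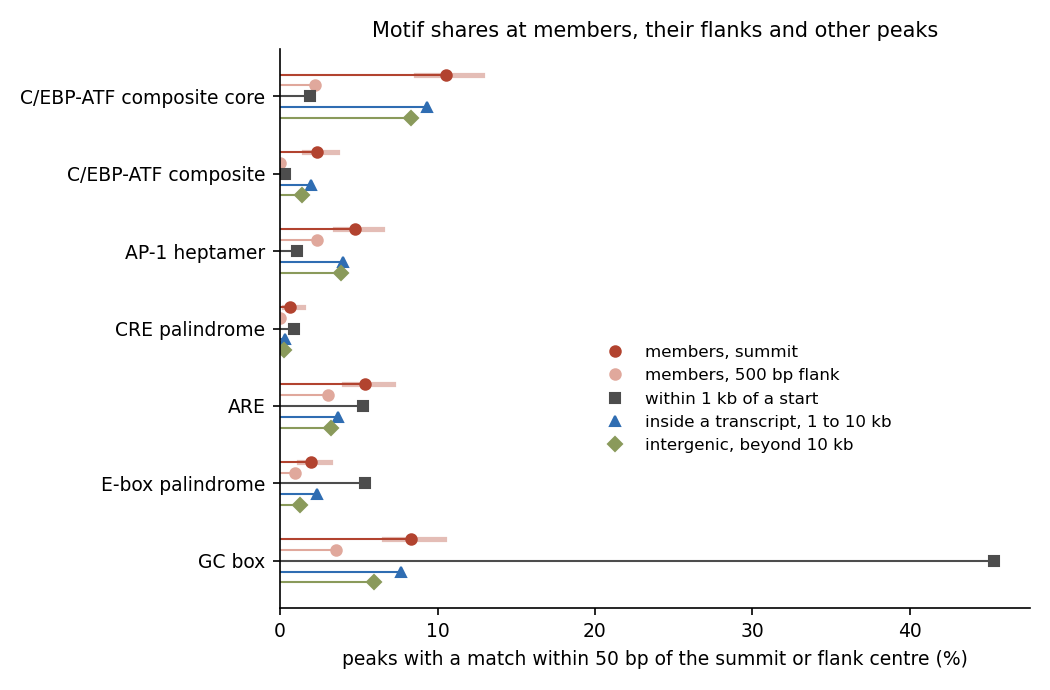
Share of peaks (%) with a match within 50 bp of the summit for 7 motifs, in members, their 500 bp flanks and 3 other position classes; the pale bar is the Wilson 95% interval of the members. The composite core is at 10.5% in members and 1.89% in promoter peaks, and the GC box at 8.32% and 45.4%.

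The composite core was absent from the 30 members of highest fold, and most of those had summits on soft-masked bases. It was present in 26 of the 200 members with a fold of at least 10 (13.0%), against 10.5% of all members. None of the 30 members of highest fold held the core, 23 of them were 290 to 340 bp wide, 22 had a summit on a soft-masked base, and 16 aligned to the mouse 7SL RNA genes. 7SL RNA is the RNA of the signal recognition particle, from which common short interspersed repeats are derived. In all, 104 members (12.7%) aligned to 7SL RNA, with a median identity of 83.3% over a median of 51 bp, against 0.634% of promoter peaks, 14.6% of peaks inside transcripts at 1 to 10 kb and 10.9% of far intergenic peaks. None of those 104 held the core, against 86 of all members (10.5%).

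Members 290 to 340 bp wide numbered 178 (21.8%) and had a median fold of 10.2, against 6.45 in the 639 members of other widths. A fold of at least 10 was reached by 90 of the 178 (50.6%) and 110 of the 639 (17.2%). Of the 178, 51 (28.7%) aligned to 7SL RNA and 102 (57.3%) had a soft-masked summit, against 53 (8.29%) and 222 (34.7%) of the others. The core was about as frequent in both, at 19 (10.7%) and 67 (10.5%). The 56 members at least 500 bp wide had a median fold of 12.7, and 8 of them held the core. Whether width or repeat content takes part in the folds was not tested.

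**Figure D4:**
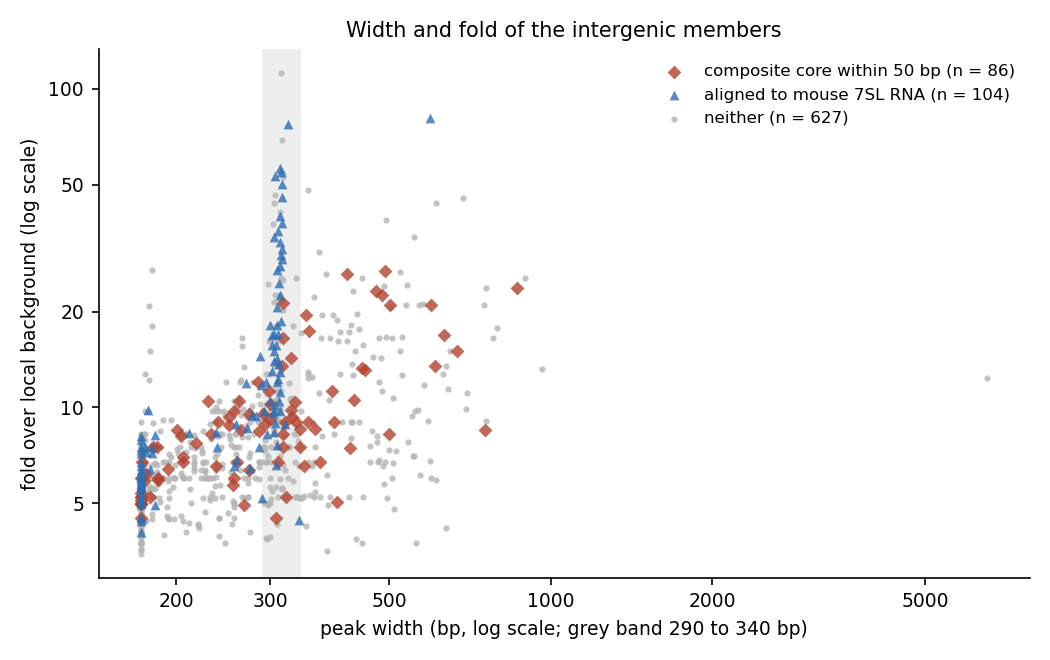
Fold over local background against peak width in bp, both on log scales, for the 817 members; diamonds hold the composite core, triangles align to 7SL RNA, and the grey band spans 290 to 340 bp. Core-bearing members reach a fold of 26.8, and 23 of the 30 highest folds lie in the band.

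The 10 members of highest fold were nearest to genes of mixed function. The peak 3114 bp upstream of Plekhd1 had a fold of 111.7 (148 summit reads), and those near Malt1, Vstm4 and Prl3c1 had folds of 81.1, 77.2 and 69.0. The other 6, near Fam213b, I0C0044D17Rik, Nefh, Rhog, 1700020N01Rik and Atad3a, had folds of 50.1 to 56.5. Of these 10 peaks 9 were 290 to 340 bp wide, 9 had a soft-masked summit and 6 aligned to 7SL RNA. Malt1 and Atad3a, which encode a paracaspase and a mitochondrial ATPase, were among those that also had a promoter peak, with folds of 9.35 and 20.7.

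The 10 strongest members with a composite, CRE, palindromic C/EBP or AP-1 match had folds of 21.3 to 111.7, and 6 of them held the composite core. Sesn2, which encodes a stress-induced inhibitor of mTORC1 signalling, had a member 3595 bp upstream with a fold of 26.8 (19.1 to 36.7 from the Poisson interval of its 37 reads). Its promoter peak had a fold of 4.93. The member 1726 bp upstream of Hspa5, the gene of the main ER chaperone BiP, had a fold of 26.2 (18.5 to 36.2, 35 reads), and Hspa5 had no promoter peak in the list. A peak 6205 bp upstream of Klf9, a hormone-induced zinc finger factor, had a fold of 23.6 (16.4 to 33.1, 32 reads). Klf9 had 2 further members, 5118 and 2513 bp upstream, with folds of 7.83 and 22.6, and a promoter peak of 6.34. The member of fold 22.6 was 313 bp wide, had a soft-masked summit and held none of the motifs.

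Stbd1, which encodes a glycogen-binding protein, had a fold of 23.1 (15.8 to 32.7) at 3897 bp upstream. The member with the core nearest to Gm11985 had a fold of 22.5 (15.3 to 32.0) and lay 5016 bp from the start of Igfbp1, a secreted binding protein of insulin-like growth factors that is induced in the stressed liver. The Ccdc9 member had the core as well, with a fold of 21.3. The other members chosen by this rule, near Plekhd1, Pmp2, Olfr1388 and 1700016D06Rik, had an AP-1 heptamer in place of the core. Pmp2, Olfr1388 and 1700016D06Rik had folds of 26.6, 25.5 and 23.6.

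The 817 members had 754 protein-coding genes as nearest genes, which is 3.45% of all 21866 protein-coding genes. A single member lay nearest to 700 of these genes, 46 had 2, 7 had 3 (Prox1, Spen, Pmm1, Klf9, Kyat1, Zfp36l1 and Herpud1) and Id3 had 4. Id3, an inhibitor of basic helix-loop-helix factors, had members on both sides with folds of 5.25 to 6.60 and no promoter peak. A start of a second gene lay within 10 kb of 128 members (15.7%), and nearest is a matter of position, not a measured link.

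Genes nearest to a member had a promoter peak of their own in 305 of 754 cases (40.5%, Wilson 37.0 to 44.0%), against 5795 of 21112 other protein-coding genes (27.4%). The difference was 13.0 points (9.50 to 16.6, Fisher's exact test, adjusted p = 1.50e-13). In the 2 comparisons that follow, genes nearest to both kinds of peak were counted with the members only. The share was 46.7% for genes nearest to peaks inside transcripts at 1 to 10 kb and to no member. The difference was −6.23 points (−10.6 to −1.75, adjusted exact p = 0.0108). With only the outermost start of each gene it was 1.81 points (adjusted exact p = 0.443). The share was 36.3% for genes nearest to far intergenic peaks and to no member, a difference of 4.15 points (0.112 to 8.24, adjusted exact p = 0.0477). That call was lost with promoter peaks within 500 bp (3.68 points, adjusted exact p = 0.0726), with a fold of at least 5 (2.44 points, adjusted p = 0.269) and with −log10 q of at least 5 (1.94 points, adjusted p = 0.394).

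Of 509 genes in 24 lists, 71 (13.9%) had a member as against the 3.45% of all protein-coding genes. The lists cover liver and stress functions and also markers of other cell types, muscle and neurons. No set test was made, and many listed genes were also chosen with earlier results of this list known. In the list of integrated stress response genes and CHOP or ATF4 targets, 7 of 28 genes had a member (25%, median fold 7.31) and 21 had a promoter peak. Among protein-coding genes nearest to no member, 27.4% had a promoter peak. Beside Sesn2, Ddit4, which encodes an inhibitor of mTORC1, had a member 8142 bp downstream with a fold of 10.4 (14 reads) and one 1060 bp upstream with a fold of 7.47 (9 reads), both with the core, and no promoter peak. Ero1l, the ER oxidase of disulphide formation, had a fold of 7.5 at 2639 bp upstream and of 25.7 at its promoter. Trib3, a pseudokinase that restrains ATF4 and CHOP, had members of 5.64 (7 reads) and 5.10 (6 reads) upstream of a promoter peak of 105.6. Atf3, a stress-induced factor of the ATF family, had 6.02 at 6542 bp upstream and 23.8 at the promoter, and the member lay 107 bp from the start of the lincRNA D730003I15Rik. Gdf15, a secreted stress cytokine, had 7.31, with the summit on a soft-masked base, and a promoter peak of 6.75. Tnfrsf10b, the death receptor DR5, had 6.0, also on a soft-masked base, and no promoter peak. At Ddit3, Atf4, Asns, Chac1, Cebpa, Cebpb, Hnf4a, Fgf21, Alb and Ppara no peak of this position was listed.

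Genes of ER protein folding and quality control differed in where their peak of highest fold lay, which is not always the peak with the most reads. Among 21 ER chaperone and folding genes, Hspa5, Dnajc3 and Hsp90b1 had a member. Dnajc3, which encodes an ER co-chaperone of BiP, had a fold of 20.7 (14.4 to 29.0, 32 reads) at 3105 bp upstream, where the CRE palindrome lay close to the summit, and of 9.32 at its promoter. Hsp90b1, the chaperone GRP94, had 6.0 (7 reads) and no promoter peak. Xbp1, the factor activated by IRE1 splicing, had a member 6420 bp downstream with a fold of 6.75 (8 reads) and 2 AP-1 heptamers. Its promoter peak had a lower fold, 6.52, on more reads (15). Tmbim6, an ER membrane protein that protects from cell death, had 4.56. Of 24 genes of ER-associated degradation, Nploc4, a cofactor of the p97 segregase, had 14.4 (9.16 to 21.7) at 1052 bp upstream on a soft-masked base and 6.04 at its promoter. Herpud1, a membrane component of the degradation machinery, had 3 weak members of 5.18 to 6.0 (6 to 10 reads), against 14.4 at the promoter. The summit of the 5.18 member lay on a soft-masked base. Selenos, a selenoprotein of the same machinery, had 2 members of 4.97.

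Transcription factors of the hepatocyte had members in 7 of 25 cases (28%, median fold 5.30). The highest was at Prox1, a homeobox factor of liver development, with 16.1 (11 to 23.0) at 3875 bp upstream and 29.6 at the promoter. Onecut2, a factor related to HNF6, had 10.9 and 9.16, and the pioneer factor Foxa1 had 6.37 and 7.79, member before promoter peak. The immediate early and AP-1 list had the highest share, with 9 of 27 genes (33.3%, Wilson 18.6 to 52.2%) and 15 member peaks at a median fold of 7.55. That interval includes the 28% of the hepatocyte factors, and the lists were not tested against each other. Besides Klf9, the highest folds of the immediate early and AP-1 list were at Ier2 and Gadd45a, both with the core. Ier2, an early growth-response gene, had 11.3 at 1005 bp upstream, with its summit on a soft-masked base. Gadd45a, a stress and growth-arrest gene, had 9.31 at 7055 bp downstream. Of 21 circadian genes, Bhlhe41, Csnk1d and Bhlhe40 had members of 9.73, 5.25 and 4.50, and all of these genes had a promoter peak as well.

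Of the 754 genes nearest to a member, 449 (59.5%) had no promoter peak, and the counts of such genes in the lists of secreted and metabolic liver functions are read beside that share. Of 25 genes of cytochrome P450 and conjugation enzymes, 7 had a member (median fold 9.43) and 2 had a promoter peak. Among protein-coding genes nearest to no member, 27.4% had a promoter peak. The 7 and the 2 had 0 genes in common, which with so few genes is a count and not a trait of the list. The highest members were at Ugt2b5 (25.5, 17.8 to 35.5), Gsta1 (12.0, 7.05 to 19.3) and Cyp7a1 (10.7, 6.36 to 16.9), which encode a glucuronosyltransferase, a glutathione transferase and the rate-limiting enzyme of bile acid synthesis. The Cyp7a1 summit lay on a soft-masked base. In the list of secreted plasma and acute-phase proteins 7 of 35 had a member, of which 5 of 7 had no promoter peak, near the share of all nearest genes. Ahsg, the plasma protein fetuin-A, had 21 (14.1 to 30.2) with the longer composite, against 6.0 at its promoter. Saa3, an acute-phase apolipoprotein, had 16.5 (10.5 to 24.8) and no promoter peak. Fgg, the fibrinogen gamma chain, had 9.55 with the longer composite and a soft-masked summit, against 6.0 at its promoter. Cps1, the first enzyme of the urea cycle, had 19.5 (12.9 to 28.4) at 9550 bp upstream and no promoter peak. Tat, which degrades tyrosine, had 6.0, and its summit aligned to 7SL RNA.

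In lipid synthesis and storage 7 of 33 genes had a member (median fold 6.75). Lpin1, a phosphatidate phosphatase of triglyceride synthesis, had 12.0 (7.05 to 19.3) with the longer composite at 9454 bp upstream and no promoter peak. Srebf1, the master factor of fatty acid synthesis, had 10.7 and Dgat2, which makes triglycerides, had 10.4 with an AP-1 heptamer, against promoter peaks of 5.03 and 7.19. The summit of the Dgat2 member lay on a soft-masked base. Among fatty acid oxidation genes Angptl4, an inhibitor of lipoprotein lipase, had the 1 member, at 9.85. Foxo3, a forkhead factor restrained by insulin, had 17.7 (12.7 to 24.1) at 1528 bp upstream and 6.90 at its promoter, while Igfbp1 and Pygl had 6.0 and 5.25. Among NRF2 antioxidant genes, Gclc, the catalytic subunit of the first step of glutathione synthesis, had 21.1 (16.3 to 27.0) on 62 reads at 3728 bp upstream and 5.71 at its promoter. The iron store gene Ftl1 and the export pump gene Abcc2 had 6.0 and 5.20, and the Ftl1 summit lay on a soft-masked base. Gpt2, a mitochondrial alanine aminotransferase, had 9.33, and Slc38a2, an amino acid transporter, had 9.04 at 9978 bp upstream, against promoter peaks of 4.11 and 36.5.

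**Figure D5:**
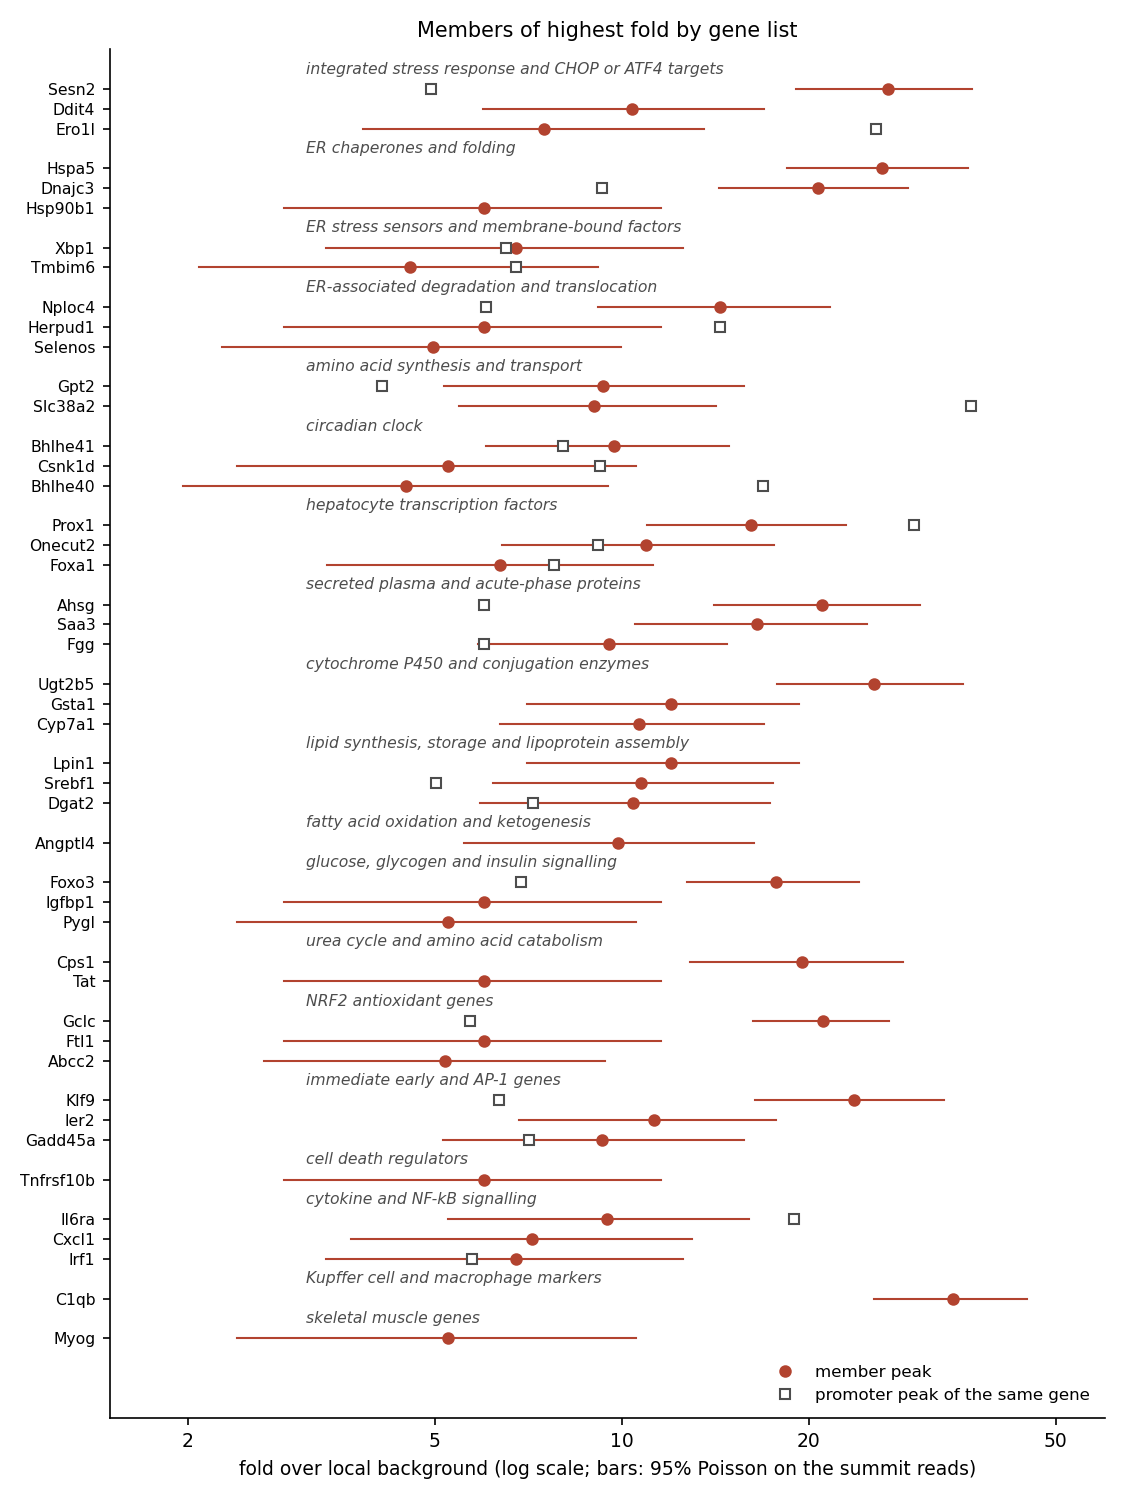
Fold over local background (log scale, with intervals from the Poisson error of the summit reads) of the members of highest fold in each gene list; open squares are the highest promoter peak of the same gene, where there is one. Folds above 20 are plotted for 8 of 46 members (Sesn2, Hspa5, Dnajc3, Ahsg, Ugt2b5, Gclc, Klf9 and C1qb), and in 9 of the 25 with a promoter peak that peak has the higher fold. The members were chosen for high fold within each list, so that count cannot show where binding is stronger. The background was at its lowest value in 35.5% of members and 7.74% of promoter peaks. The order by fold can differ from that by reads, as at Xbp1 (8 reads in the member, 15 in the promoter peak). It need not, as at Sesn2 (37 and 6).

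Counts in the lists of other cell types and functions were small, and at 3.45% of all genes a list of this size would be near 0 or 1, so they are given as counts only. Of 17 Kupffer cell and macrophage markers C1qb had a member (fold 34.2), whose summit lay on a soft-masked base and aligned to 7SL RNA, and of 14 skeletal muscle genes Myog had one (fold 5.25, 6 reads). No member was nearest to any of 17 stellate and endothelial markers, 8 cholangiocyte markers, 16 neuronal genes, 21 aminoacyl-tRNA synthetases or 22 autophagy genes. Of the synthetases 14 and of the autophagy genes 18 had a promoter peak, against 27.4% of all protein-coding genes nearest to no member. Of 24 cytokine and NF-kB genes 4 had a member (16.7%, median fold 6.96). Il6ra, the interleukin 6 receptor, had 9.49 with an AP-1 heptamer, against 19.0 at its promoter. The chemokine gene Cxcl1 had 7.17, the interferon factor gene Irf1 had 6.75, and the cytokine gene Il1b, named after its value was seen, had 5.25 on 6 reads.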

How the data were processed

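Chromatin immunoprecipitation of CHOP from mouse liver was analysed from the peak list of 1 library made from a pool of 3 mice; the input was not analysed on its own here. Bowtie placed single-end reads on mm10 with no more than 2 mismatches, and copies beyond 2 at one position and strand were removed, per the labels' protocols. SAMtools 1.9 and Sambamba 0.7.1 did further filtering, MACS2 2.1.2 called the peaks with its defaults, and ChIPseeker annotated them, per the submitters' processing notes and the labels' protocols. The sources used here give neither the Bowtie version nor the total read depth.

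The authors deposited, per peak, a fold (the ratio of summit pileup to local background), its −log10 p and −log10 q, a score and the summit offset. The deposited score was not used. The authors' values serve only to describe and order peaks of the 1 list. The whole-number pileup and the background were solved from the fold and −log10 p (largest residual 3.13e-05), and 95% Poisson intervals of the pileup were turned into fold intervals, the background being kept as solved. Reads have no molecular identifiers, so intervals cover counting error only.

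Coordinates are mm10. Positions were taken from GENCODE M21 and sequence from the GRCm38.p6 RefSeq genome, whose lower-case bases are called soft-masked. Windows of 301 bp around the summits were aligned to the 3 annotated mouse 7SL RNA genes with BLAST 2.17.0 (E-value of at most 1e-06). Motifs were matched by exact letters within 50 bp of the summit. Motif shares were compared with a window 500 bp away by exact McNemar tests and between position classes by Fisher's exact tests, two-sided, with Benjamini-Hochberg adjustment at 0.05 within each family. Differences of shares have Newcombe intervals. Tests were checked on simulated data. Python 3.11.15 with numpy 2.4.6, pandas 2.3.3 and scipy 1.17.1 was used.

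The members, gene lists, motifs and tests were chosen with earlier results of these data known. Genes are named by these rules: the 10 members of highest fold; the 10 of highest fold with a composite, palindromic C/EBP, CRE or AP-1 match; up to 3 per gene list; the nearest members of a set of stress and liver genes; the peaks next to each distance limit; and genes with 4 or more members. Other names are given as chosen after their values were seen. Alternatives covered start sites, distance limits, peak thresholds, masked, 7SL-aligned and 290 to 340 bp peaks, motif windows and flanks.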

Additional observations from a re-analysis of the deposited data

How the results depend on the processing

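The number of members was 421 at 1 to 5 kb, and 595 to 819 under the other definitions tried. The density was 3.82 per Mb with −log10 q of at least 5 and 4.62 per Mb with a fold of at least 5. The upstream share was 88.8% with only outermost starts. The excess of members at or above the median fold over promoter peaks was −2.70 points with −log10 q, −3.89 without peaks 290 to 340 bp wide, 1.80 without soft-masked summits, 2.33 without 7SL-aligned peaks and 2.00 without ties at the median, an alternative chosen after seeing the data; over far intergenic peaks it was 4.63 without soft-masked summits and 4.78 without 7SL-aligned peaks. Motifs differing from the flank numbered 6 with windows of 100 bp and 6 without soft-masked summits. Motifs differing from far intergenic peaks numbered 2 with windows of 25 bp and 0 with −log10 q of at least 5. The promoter-peak share of nearest genes, minus that of peaks inside transcripts, was 1.81 points with outermost starts; minus that of far intergenic peaks it was 3.68 with promoters of 500 bp, 1.94 with −log10 q of at least 5 and 2.44 with a fold of at least 5. The cause was not tested. Of the other 90 recomputed values, 88 kept their direction and their side of the threshold, or stayed close to the count or within the interval reported. The other 2, which did not pass in either setting, changed sign: against peaks inside transcripts, the fold difference was 0.177 points with outermost starts and the core difference −0.151 points with windows of 25 bp. No paired analysis was possible because there was 1 library. With 10 reads or fewer under 439 members, single folds of weak peaks carry wide intervals.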

Other observations

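A number of members lay at starts of genes that are not protein-coding, which the position rule did not use. Within 1 kb of such a start there were 80 members (9.79%), among them 21 at lincRNA, 9 at antisense and 7 at microRNA genes. The same shares were not computed for all peaks or for the eligible sequence, so these are counts only. A further view of the same annotation is that 647 members lay neither inside nor within 1 kb of the start of a gene of another type. The names in this section were chosen after their values were seen. The member nearest to the lincRNA gene Lockd lay 766 bp from its start, held the longer composite and had a fold of 10.5 on 13 reads. At Tug1, a conserved long non-coding RNA gene, a member lay 31 bp from the annotated start with a fold of 7.88 on 10 reads. The lincRNA gene Gm13073 had a member 47 bp from its start with the core and a fold of 7.76, and Gm15889 had 2 members within 387 bp, with folds of 5.25 and 5.18, which are also nearest to Herpud1 among protein-coding genes.

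The microRNA genes were Mir1932 (fold 45.2 on 98 reads, 444 bp away), Mir7671 (6.75), Gm22133 (6.0), Mir8120 (5.87), Mir203 (5.49), Mir212 (5.18) and Mir210 (4.58). Mir210 is a hypoxia-induced microRNA in many cell types, and Mir203 is known from skin. A GC box was present in 5 of these 7 members, against 8.32% of all members, and the core in 0 of 7, where its share of 10.5% over all members would give 0 or 1.

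The metallothionein gene Mt1, a metal and stress response gene, had a member 1577 bp downstream with a fold of 43.7 on 83 reads, 304 bp wide and with a soft-masked summit, and no promoter peak. Cdkn1b, a cell cycle inhibitor gene, is the protein-coding gene nearest to the Lockd member and had a promoter peak as well. Bcl6, a repressor in liver and B cells, had the longer composite 7782 bp upstream with a fold of 4.50 on 5 reads.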
